A study of Homo sapiens with 6 samples.

Results

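The keratin genes KRT4, KRT7, KRT8, KRT18, KRT19, KRT80 and KRT81 were followed by their Ensembl identifiers through all 6 RNA sequencing libraries of the series. They are 7 of the 58336 genes in the count table, and 5 of them (KRT4, KRT7, KRT8, KRT18 and KRT80) had enough reads to enter the test across genes, which covered 15673 genes. The gene names were read from GENCODE release 29 by identifier.

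Every library came from Sum159, a human triple-negative breast cancer line, and the labels divide the cells into ITGB4 high and ITGB4 low, after an integrin subunit that anchors epithelial cells to the basement membrane. Lung-recovered cells under the LM2 trigger were ITGB4 low cells of clone 1 and clone 3 (1 library each) that had shared mouse lungs with LM2, a lung-metastatic derivative of the human breast cancer line MDA-MB-231. Lung-recovered cells under bleomycin, a drug that damages lung tissue, were ITGB4 low clone 1 (1 library) from mice dosed through the trachea. The ITGB4 high cells (1 library) and the control ITGB4 low cells (clones 1 and 3, 1 library each) were grown in dishes, and the controls received no trigger. The lung cells were injected through the tail vein, and the dissociated lungs were cultured overnight before cells positive for the red protein tdTomato were sorted. The treatment text names clone 1 only, so the clone 3 library under LM2 rests on its title. Passage through the lung, overnight culture and sorting went with the triggers, so their parts cannot be told apart. The sources used here do not give mouse strain, sex or age, nor do they state that the libraries came from separate cultures or animals. The p-values therefore measure the spread between these libraries, which may be technical.

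Keratins are the intermediate filament proteins of epithelial cells, and each filament is built from pairs of an acidic type I and a basic type II protein. KRT8 (type II) and KRT18 (type I) form the filament of simple, single-layered epithelia, where KRT7 (type II) and KRT19 (type I) are added in ducts and glands. In the breast these keratins mark the luminal layer, while KRT5, KRT14 and KRT17 mark the basal layer. KRT4 is a type II keratin of moist stratified linings such as the esophagus, KRT80 is a type II keratin of differentiating epithelia, and KRT81 is a type II keratin of the hair cortex. Cells with mesenchymal features commonly make vimentin, a type III intermediate filament protein, in addition to or in place of keratins.

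Of the 7 genes, 6 lie in the type II cluster of chromosome 12 (GRCh38): KRT80 at chr12:52168996-52192000 on the minus strand, KRT7 at chr12:52232520-52252186 on the plus strand, KRT81 at chr12:52285913-52291534 on the minus strand, KRT4 at chr12:52806549-52814551 on the minus strand, KRT8 at chr12:52897187-52949954 on the minus strand and KRT18 at chr12:52948871-52952901 on the plus strand. KRT18 is the type I gene of this cluster. KRT19 lies in the type I cluster at chr17:41523617-41528308 on the minus strand.

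Reads of KRT81, KRT8, KRT18 and KRT19 could be shared with near-copies, which bears on the weight of their counts. The coding sequence of KRT81 in GENCODE 29 was identical to that of KRT86, another hair keratin of the same cluster, at 1362 of 1454 aligned bases (93.7%), the closest match of any of the 7 genes to another keratin. KRT8 has 50 annotated pseudogenes, of which KRT8P12 on chromosome 3 held the most counts, 374 over the 6 libraries. It matched the KRT8 coding sequence at 90.5% of 1385 aligned bases, and the 5 pseudogenes with the most counts matched at 90.5% to 97.1%. KRT18 has 67 annotated pseudogenes and KRT19 has 5. The other keratins were less alike. The nearest match was KRT3 for KRT4 (77.6%), KRT8 for KRT7 (75.9%), KRT14 for KRT19 (75%), KRT35 for KRT18 (67.8%) and KRT8 for KRT80 (66.2%), among 54 other keratins compared.

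Libraries held 13607953 to 22222121 counts, and levels are given as CPM, counts scaled to 1000000 per library with TMM factors. A count of 0 allows up to 3 counts, or 0.138 to 0.232 CPM by library. Intervals and floors cover counting error only, without the spread between libraries. PCR copies of 1 molecule were not marked by molecular identifiers, so counting error itself may be larger than they show. The 5 marker genes of a mesenchymal line (VIM, CD44, FN1, ZEB1 and AXL) summed to 8172 to 11154 CPM in the lung libraries, 6179 CPM in ITGB4 high cells and 14179 to 14567 CPM in controls. ESR1, PGR, CDH1 and EPCAM had at most 6 counts in any library. Leukocyte markers (8 genes) summed to 1.02 to 5 CPM in lung cells, 1.39 CPM in ITGB4 high cells and 1.06 to 1.73 CPM in controls. Lung epithelial markers (10 genes) summed to 3.95 to 4.6, 2.48, and 6.02 to 6.79 CPM in the same groups. SFTPC, SFTPA1, SCGB1A1 and SCGB3A2 were at 0 in every library. The 2 tested ones lay opposite ways. NKX2-1 measured 0, 1.41 and 0 CPM in lung cells against 4.09 and 3.91 in controls, and AGER 3.8, 2.88 and 3.53 against 2.29 and 1.79. The host lungs were mouse and the reads were aligned to the human genome, so these human genes cannot show whether mouse cells remained. A 14-gene lung metastasis signature of LM2 cells summed to 3102 CPM in LM2 lung clone 1, 1263 CPM in LM2 lung clone 3, 1451 CPM in bleomycin lung cells, 1636 CPM in ITGB4 high cells, and 1048 and 1284 CPM in controls. The 11 dissociation-response genes summed to 658 to 1050.03 CPM in lung cells, 709 CPM in ITGB4 high cells, and 725 and 1019 CPM in controls. By edgeR, 1 gene of these marker lists passed in any comparison, ID1 of the LM2 signature, which was higher in all lung libraries than in controls. The sums are led by abundant genes, and the median log2 fold change of the 14 signature genes was 3.37 for LM2 lung, 2.60 for bleomycin lung, 3.16 for all lung libraries and 0.44 for ITGB4 high against control. DESeq2 called 8, 4, 8 and 4 of the 14 higher and 1, 1, 1 and 2 lower in that order. Its shares over all genes, in either direction, were 4.48%, 4.19%, 8.84% and 10.7%. The part of these marker sums in the keratin results was not tested. The 2 LM2 libraries differed from each other more than the 2 controls did, by a chi-square over genes, divided by its degrees of freedom, of 70.8 for the LM2 clones and 7.81 for the control clones.

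None of the 5 tested keratins passed an adjusted p of 0.05 in any of 6 comparisons by edgeR's quasi-likelihood test. Few genes of any kind did. The share of all tested genes called was 0.0319% for LM2 lung against control, 0.0255% for bleomycin lung against control, 0.498% for all lung libraries against control, 0.0893% for ITGB4 high against control, 0.108% for all lung libraries against ITGB4 high, and 0% for bleomycin lung against LM2 lung. With the clone as a block, the call counts over all genes moved to 36, 8, 39, 363, 0 and 0 in that order, beside 5, 4, 78, 14, 17 and 0 without it. At an unadjusted edgeR p under 0.05, the keratins counted 3 of 5 for LM2 lung (2 higher and 1 lower, where 15.6% of all genes counted, 7.29% higher and 8.33% lower), 2 of 5 for bleomycin lung (both lower, against 14.5%, 6.65% higher and 7.8% lower), 2 of 5 for all lung libraries (1 higher and 1 lower, against 20.5%, 9.26% and 11.3%) and 2 of 5 for ITGB4 high (both lower, against 24.5%, 10.4% and 14.2%), each against control. The count was 2 of 5 for all lung libraries against ITGB4 high (1 higher and 1 lower, against 18.3%, 10.4% and 7.86%) and 1 of 5 for bleomycin lung against LM2 lung (lower, against 4.61%, 2.04% and 2.58%). DESeq2 called 1 keratin in LM2 lung (4.48% of all genes with an adjusted p), 1 in bleomycin lung (4.19%), 1 in all lung libraries (8.84%) and 2 in ITGB4 high (10.7%), each against control. It called 2 in all lung libraries against ITGB4 high (8.02%) and 1 in bleomycin lung against LM2 lung (0.404%). By level alone, 1 of the 5 lay above both controls in every lung library (20.4% of all genes) and 1 below (25.4%), while ITGB4 high cells had 2 above both controls (43.6%) and 3 below (45.2%). These shares give the background for each count, and 5 genes are too few for a count to stand apart from it. The median log2 fold change of the 5 keratins was -0.18 for LM2 lung, -0.90 for bleomycin lung, -0.22 for all lung libraries and -0.30 for ITGB4 high against control, where the medians of all tested genes lay between -0.03 and 0.00. The 4 comparisons against control share the same 2 control libraries.

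**Figure D1:**
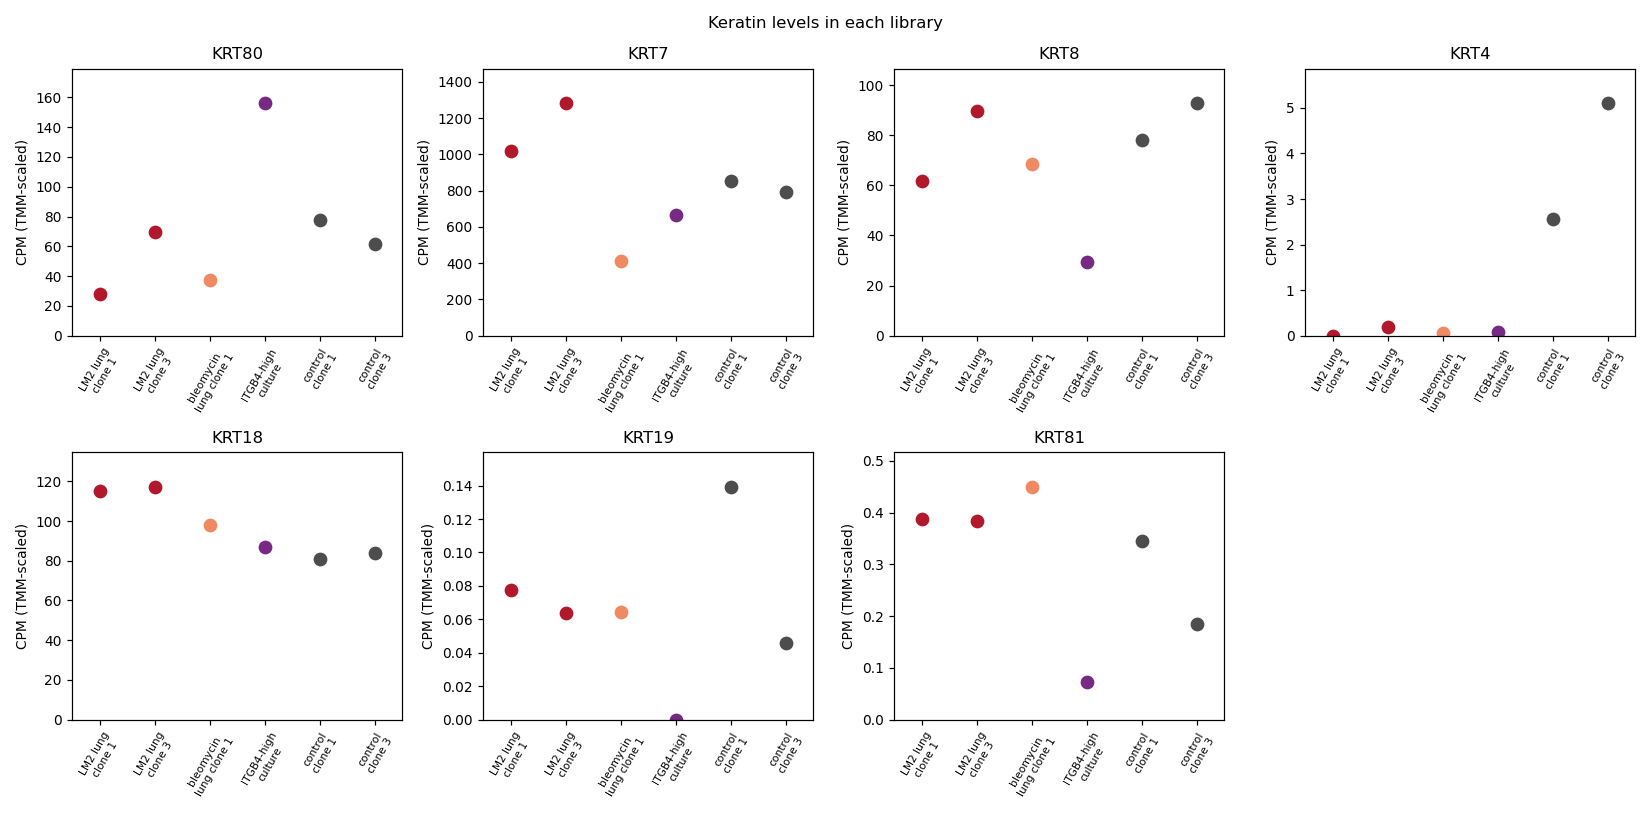
TMM-scaled CPM of each keratin (y axis, linear, a separate scale per gene) in the 6 libraries (x axis, 1 point per library). KRT4 sits between 0 and 0.192 CPM in the lung and ITGB4 high libraries and at 2.56 and 5.1 CPM in controls, while KRT80 is highest in ITGB4 high cells at 156 CPM and KRT7 lowest in bleomycin lung cells at 412 CPM.

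KRT7 was the most abundant of the 7 keratins, and its levels under the 2 triggers stood on different sides of the controls. KRT7 measured 1021 CPM in LM2 lung clone 1, 1281 CPM in LM2 lung clone 3, 412 CPM in bleomycin lung clone 1, 668 CPM in ITGB4 high cells, and 850.3 and 794 CPM in control clones 1 and 3. Both LM2 libraries lay above both controls, and the bleomycin and ITGB4 high libraries lay below them. KRT7 averaged 1151 ± 184 CPM in LM2 lung cells and 822 ± 40.1 CPM in controls (SD, n = 2 each), a log2 fold change of 0.49 (SE 0.17, edgeR adjusted p = 0.303). For bleomycin lung cells against control the log2 fold change was -1.0 (SE 0.22, edgeR adjusted p = 0.217), and for bleomycin against LM2 lung cells it was -1.48 (SE 0.23, unadjusted p = 0.00149, edgeR adjusted p = 0.863). DESeq2 called both of the differences with bleomycin, with adjusted p of 0.0081 against control and 2.37e-05 against LM2 lung cells.

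Within clone 1, KRT7 in LM2 lung cells was 1.2 times its control (95% counting interval 1.17 to 1.23) and in bleomycin lung cells 0.484 times, and within clone 3 LM2 lung cells stood at 1.61 times their control (1.58 to 1.65). Taken over all lung libraries the log2 fold change of KRT7 was 0.14 (SE 0.45, edgeR adjusted p = 0.88), and it was -0.19 without LM2 lung clone 3. In ITGB4 high cells it was -0.30 against control (SE 0.21, edgeR adjusted p = 0.428). The edgeR calls of KRT7 depended on the LM2 libraries and on the low-count filter. Without that filter, and with all 6 libraries, edgeR called KRT7 lower in bleomycin lung cells. The log2 fold change was -1.01 against control and -1.48 against LM2 lung cells, where 1430 and 236 genes were called. A fit of 4 groups without an LM2 library has 1 residual degree of freedom, from the 2 controls alone, and assumes that the single libraries vary as the controls do. It called 1826 to 6611 genes in the comparisons against control, so the calls given here for such fits, of KRT7 and of the other keratins, carry that assumption. Without LM2 lung clone 1 or clone 3, KRT7 passed as lower in bleomycin lung cells relative to control (adjusted p = 1.3e-04 and 8.97e-04) and relative to the LM2 library left in (log2 -1.63, adjusted p = 5e-05, and -1.32, 0.00144). The same 2 fits called KRT7 higher in LM2 lung cells than in controls (log2 0.64, adjusted p = 0.00397, and 0.33, 0.0423). Without either control, no keratin passed in any comparison. The gene shares 282 exon bases (6.89% of its exon length) with the antisense gene KRT7-AS, and the strand setting of the counting is unknown, so reads in that stretch cannot be told apart. In these bulk libraries, fewer cells with a transcript and less of it per cell cannot be told apart either.

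KRT18 stood a little higher in the lung libraries than in controls, and KRT8 did not. KRT18, the type I partner of the simple-epithelial pair, measured 115 and 117 CPM in LM2 lung clones 1 and 3, 97.8 CPM in bleomycin lung cells, 86.8 CPM in ITGB4 high cells, and 81 and 83.9 CPM in controls. All 3 lung libraries lay above both controls, a pattern shown by 20.4% of all tested genes. KRT18 averaged 109.9 ± 10.5 CPM in lung cells (SD, n = 3) and 82.5 ± 2.05 CPM in controls (SD, n = 2), a log2 fold change of 0.41 (SE 0.13, unadjusted p = 0.0184, edgeR adjusted p = 0.172). For LM2 lung cells alone the log2 fold change was 0.49 (SE 0.12, edgeR adjusted p = 0.233). It passed without LM2 lung clone 1 (adjusted p = 0.00936) or clone 3 (0.00469). In ITGB4 high cells KRT18 was 1.05 times the controls (95% counting interval 0.979 to 1.12), so the difference was within counting error.

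KRT8, the type II partner, was lowest in ITGB4 high cells. It measured 61.6 and 89.5 CPM in LM2 lung clones 1 and 3, 68.7 CPM in bleomycin lung cells, 29.5 CPM in ITGB4 high cells, and 78 and 92.7 CPM in controls. The lung and control libraries overlapped, whereas the ITGB4 high library lay below all the others. KRT8 averaged 73.2 ± 14.5 CPM in lung cells (SD, n = 3) and 85.3 ± 10.4 CPM in controls (SD, n = 2), a log2 fold change of -0.22 (SE 0.19, edgeR adjusted p = 0.539). For LM2 lung cells it was -0.18 (SE 0.23, edgeR adjusted p = 0.698), with 0.07 without LM2 lung clone 1 and -0.46 without clone 3 (edgeR adjusted p = 0.0211). For ITGB4 high against control the log2 fold change was -1.53 (SE 0.30, unadjusted p = 0.00435, edgeR adjusted p = 0.0869). With the clone as a block, in which the ITGB4 high library has no clone number and was placed midway between the clones, the same log2 fold change of -1.53 had an edgeR adjusted p of 0.0491, and DESeq2 gave 5.45e-04. Without LM2 lung clone 1 or clone 3 the edgeR adjusted p was 1.44e-05 or 1.65e-04. For all lung libraries against ITGB4 high, KRT8 differed by a log2 of 1.31 (SE 0.27, edgeR adjusted p = 0.104, DESeq2 adjusted p = 5.59e-04), and by edgeR it passed without LM2 lung clone 1 (adjusted p = 0.0268). The ITGB4 high group is a single library, which takes its spread from the other groups.

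The balance of the pair therefore differed by library. KRT8 took 34.8% of the summed KRT8 and KRT18 counts in LM2 lung clone 1 (Wilson 95% interval 32.9 to 36.8), 43.4% in LM2 lung clone 3 (41.7 to 45.1), 41.3% in bleomycin lung cells (39.4 to 43.2), 25.4% in ITGB4 high cells (23.3 to 27.6), and 49% (47 to 51.1) and 52.5% (50.9 to 54) in control clones 1 and 3. All 3 lung libraries and the ITGB4 high library lay below both controls beyond counting error. Per kilobase of all annotated exons, the KRT8 to KRT18 ratio was 0.25, 0.359 and 0.328 in LM2 lung clone 1, LM2 lung clone 3 and bleomycin lung cells, 0.159 in ITGB4 high cells, and 0.45 and 0.516 in controls. Per kilobase of the longest transcript the ratios were 0.39, 0.56 and 0.512 in those lung libraries, 0.248 in ITGB4 high cells, and 0.702 and 0.805 in controls. Each length is the same in all libraries, so the choice of length scales every ratio alike and cannot change the order of the libraries.

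Shared sequence touches both genes. The 2 genes overlap at their 5′ ends on opposite strands for 525 exon bases (7.63% of KRT8 exon length, 16.3% of that of KRT18), and without the strand setting those reads cannot be told apart. The 50 KRT8 pseudogenes held 101 to 195 counts per library, or 9.43% to 27.5% of the KRT8 count. The 67 KRT18 pseudogenes held 46 to 66 counts, or 2.52% to 4.19%. With pseudogene counts added, KRT8 stood at 70.6, 98.8 and 75.1 CPM in LM2 lung clone 1, LM2 lung clone 3 and bleomycin lung cells, 37.6 CPM in ITGB4 high cells, and 86.8 and 102 CPM in controls. The ITGB4 high library stayed the lowest with these counts included.

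**Figure D2:**
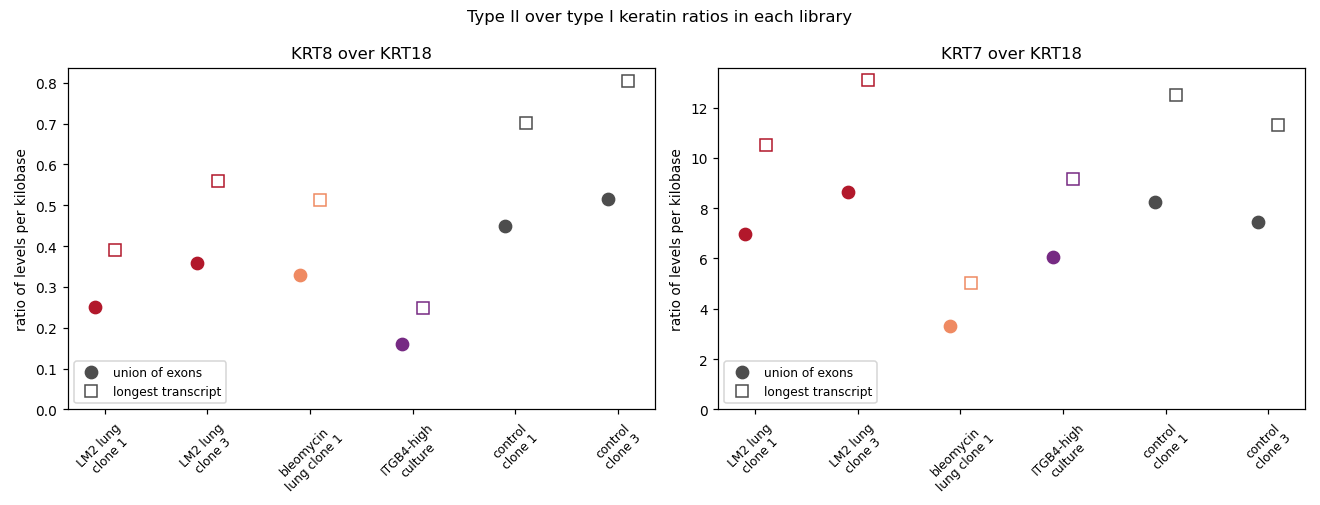
Ratio of KRT8 to KRT18 (left) and of KRT7 to KRT18 (right) in levels per kilobase (y axes, linear) for each library (x axis), with filled circles for the union of exons and open squares for the longest transcript. KRT8 over KRT18 by exon union is 0.159 in ITGB4 high cells, 0.25 to 0.359 in lung cells, and 0.45 and 0.516 in controls, while KRT7 over KRT18 is lowest in bleomycin lung cells at 3.31.

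KRT7 far exceeded its type I partners in every library. Per kilobase of exon union it measured 249 and 313 CPM in LM2 lung clones 1 and 3, 101 CPM in bleomycin lung cells, 163 CPM in ITGB4 high cells, and 208 and 194 CPM in controls. KRT18 on the same scale ran from 25.2 CPM per kilobase in control clone 1 to 36.3 in LM2 lung clone 3, and KRT8 from 4.29 in ITGB4 high cells to 13.5 in control clone 3. KRT7 was thus 3.31 times KRT18 in bleomycin lung cells and 6.05 to 8.63 times in the other 5 libraries by exon union (5.02, and 9.16 to 13.1, by longest transcript). VIM was more abundant still by exon union, at 421 to 597 CPM per kilobase in lung cells, 690.3 in ITGB4 high cells, and 646 and 698 in controls.

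KRT80 was highest in ITGB4 high cells and differed between the 2 LM2 clones. It measured 27.8 CPM in LM2 lung clone 1, 69.7 CPM in LM2 lung clone 3, 37.4 CPM in bleomycin lung clone 1, 156 CPM in ITGB4 high cells, and 77.9 and 61.8 CPM in control clones 1 and 3. Both clone 1 lung libraries lay below both controls, and LM2 lung clone 3 lay between the controls. Within clone 1, KRT80 in LM2 lung cells was 0.357 times its control and in bleomycin lung cells 0.48 times. Within clone 3 the LM2 lung library stood at 1.13 times its control (95% counting interval 1.04 to 1.22). KRT80 averaged 48.8 ± 29.6 CPM in LM2 lung cells and 69.8 ± 11.4 CPM in controls (SD, n = 2 each), a log2 fold change of -0.52 (SE 0.45, edgeR adjusted p = 0.563). Without LM2 lung clone 1 that log2 fold change was 0.00, and without clone 3 it was -1.31 (edgeR adjusted p = 0.00183).

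For ITGB4 high cells KRT80 was 2.28 times the controls, a log2 fold change of 1.16 (SE 0.53, edgeR adjusted p = 0.26). This passed without LM2 lung clone 1 (adjusted p = 2.81e-04) or clone 3 (0.00156). All lung libraries against ITGB4 high gave -1.79 (SE 0.45, unadjusted p = 0.00731, edgeR adjusted p = 0.141), and DESeq2 called this difference with an adjusted p of 0.00975. Bleomycin lung against control gave -0.90 (SE 0.58, edgeR adjusted p = 0.521), and it passed without LM2 lung clone 1 (adjusted p = 0.00349) or clone 3 (0.0107). Against LM2 lung cells, bleomycin lung cells gave -0.38 (SE 0.56, edgeR adjusted p = 0.943), with -0.89 (0.0179) without LM2 lung clone 1 and 0.42 (0.203) without clone 3. Per kilobase, KRT80 exceeded KRT18 in ITGB4 high cells by exon union (35.8 against 27 CPM per kilobase), but not by longest transcript (39.9 against 41.6). In the other libraries it lay below KRT18 on both scales.

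**Figure D3:**
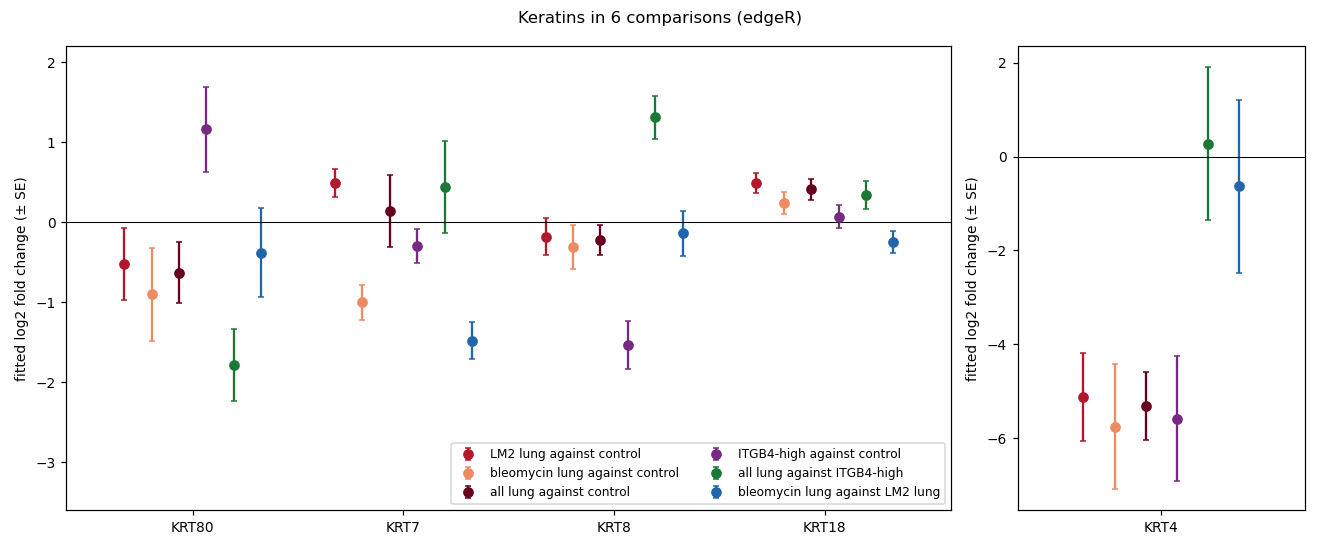
Fitted log2 fold changes with their standard errors (y axes) for the 5 tested keratins (x axes) in 6 comparisons by edgeR, with KRT4 on a scale of its own. KRT7 is on opposite sides of 0 for LM2 lung (0.49) and bleomycin lung (-1.0), KRT8 is lowest for ITGB4 high against control (-1.53), and the KRT4 values against control lie between -5.75 and -5.12.

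KRT4 was detected mainly in the control cultures. It had 0 and 3 counts in LM2 lung clones 1 and 3, 1 count in bleomycin lung cells, 1 count in ITGB4 high cells, and 37 and 111 counts in control clones 1 and 3. In CPM this was 0, 0.192 and 0.0641 in those lung libraries, 0.073 in ITGB4 high cells, and 2.56 and 5.1 in controls. The groups did not overlap, and every lung and ITGB4 high value was at or below the floor of its own library. Having every lung library below both controls was shared by 25.4% of all tested genes. Lung cells over controls had a CPM ratio of 0.0222 (4 against 148 counts, 95% counting interval 0.00596 to 0.0579), and ITGB4 high cells over controls 0.0178 (1 against 148 counts, 4.49e-04 to 0.101). The 2 controls also differed, with clone 1 at 0.502 times clone 3 (0.336 to 0.735).

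The edgeR test of KRT4 for all lung libraries against control gave an unadjusted p of 3.34e-04 and an adjusted p of 0.0557, just short of passing. The fitted log2 fold change was -5.31 (SE 0.73), which at such low counts is no bound on the fold. KRT4 reached the filter's minimum count of 10 only in controls, so it entered the test through the group in which it was high. Its calls as lower elsewhere are therefore no separate support for that difference. KRT4 passed without LM2 lung clone 1 (adjusted p = 0.0332) or clone 3 (0.0237) and by DESeq2 (2.6e-05). The edgeR adjusted p was 0.183 for LM2 lung, 0.224 for bleomycin lung and 0.105 for ITGB4 high against control, with DESeq2 calling LM2 lung (0.00621) and ITGB4 high (0.0354). Without LM2 lung clone 1 or clone 3, edgeR called KRT4 lower for LM2 lung (adjusted p = 0.0062 and 0.00237), bleomycin lung (0.00146 and 0.00406) and ITGB4 high cells (0.00114 and 0.00296), each against control. Even in controls KRT4 was a minor keratin, at 0.774 and 1.54 CPM per kilobase of exon union, against 208 and 194 for KRT7. The gene KDR, an endothelial receptor fixed as a marker of endothelial cells, was likewise high in controls, at 0.155, 6.52 and 1.73 CPM in the lung libraries in the same order, 3.07 CPM in ITGB4 high cells, and 70.8 and 105 CPM in controls. The 5 endothelial markers summed to 2.56, 10.3 and 11.2 CPM in the lung libraries, 6.13 CPM in ITGB4 high cells, and 72.8 and 108 CPM in controls, and none of them was called by edgeR in any comparison. The sum is mostly KDR in controls. PECAM1, the other tested endothelial marker, lay the other way, at 2.32, 3.64 and 9.42 CPM in the lung libraries, 3.07 CPM in ITGB4 high cells, and 1.8 and 2.02 CPM in controls. Their part in the KRT4 difference was not tested.

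KRT19 and KRT81 were near the detection floor throughout and were not tested. KRT19, the small type I keratin of ducts and the luminal breast, had 1 count in each of the 3 lung libraries, 0 in ITGB4 high cells, and 2 and 1 in control clones 1 and 3. All 6 values were at or below the floor of 3 counts. The 5 KRT19 pseudogenes added 1 count in all. KRT81, the hair cortex keratin, had 5, 6 and 7 counts in LM2 lung clone 1, LM2 lung clone 3 and bleomycin lung cells, 1 count in ITGB4 high cells, and 5 and 4 counts in controls. Lung cells over controls gave a KRT81 ratio of 1.64 with a counting interval of 0.699 to 4.14, so a difference was not detectable at this depth. Its near-copy KRT86 had 10, 9 and 6 counts in those lung libraries, 8 in ITGB4 high cells, and 2 and 8 in controls, which is of the same order. Reads common to both could have been split or dropped in counting.

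Other keratins were measured as well, and no test compared them with the 7. The annotation holds 48 other keratin genes, and 12 passed the filter. By edgeR 2 of the 12 rose in all lung libraries against control and none fell (0.498% of all genes were called). The 12 had a median log2 fold change of 4.23, beside 0.00 over all genes. DESeq2 called 5 of the 12 higher in that comparison (8.84% of all genes, either direction). KRT14, KRT15, KRT16, KRT17 and KRT23 had at most 3 counts in either control, so they entered the test through libraries in which they were higher. KRT34 and KRT38 entered it through controls. The median and the calls of such genes are therefore no separate support for a rise. KRT75, a type II keratin of the hair follicle, measured 273 and 244 CPM in LM2 lung clones 1 and 3, 167 CPM in bleomycin lung cells, 75.6 CPM in ITGB4 high cells, and 2.7 and 2.25 CPM in controls. It rose in LM2 lung (log2 6.71, SE 0.19, edgeR adjusted p = 0.00999), bleomycin lung (6.08, SE 0.20, 0.0179) and ITGB4 high cells (4.94, SE 0.19, 0.0148), each against control, and in all lung libraries together (6.53, SE 0.32, 0.006). In the first 3 comparisons DESeq2 called 5, 5 and 4 other keratins higher (4.48%, 4.19% and 10.7% of all genes, either direction). By edgeR KRT75 was the 1 other keratin called in them. Without control clone 1 or clone 3 it no longer passed in these 4 comparisons (adjusted p from 0.149 to 0.629), as no gene did.

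KRT17, a type I keratin of basal and injured epithelia, measured 16.1 and 18.6 CPM in LM2 lung clones 1 and 3, 5.26 CPM in bleomycin lung cells, 2.77 CPM in ITGB4 high cells, and 0 and 0.0919 CPM in controls, which held 0 and 2 counts. It passed for all lung libraries against control with an edgeR adjusted p of 0.0491. KRT17 entered the test through the libraries in which it was higher, so its call is no separate support for a rise. The call ended with the clone as a block (0.0556), and without LM2 lung clone 1 (0.0649), the bleomycin library (0.0571), the ITGB4 high library (0.05, at the threshold), control clone 1 (0.345) or control clone 3 (0.508). KRT5, the type II keratin of basal cells, measured 212, 113 and 12.3 CPM in LM2 lung clone 1, LM2 lung clone 3 and bleomycin lung cells, 3.28 CPM in ITGB4 high cells, and 2.29 and 2.67 CPM in controls (edgeR adjusted p = 0.118 for all lung libraries against control, 2.88e-04 by DESeq2). KRT10, a type I keratin of the suprabasal epidermis, lay between 14.2 and 27.8 CPM everywhere.

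**Figure D4:**
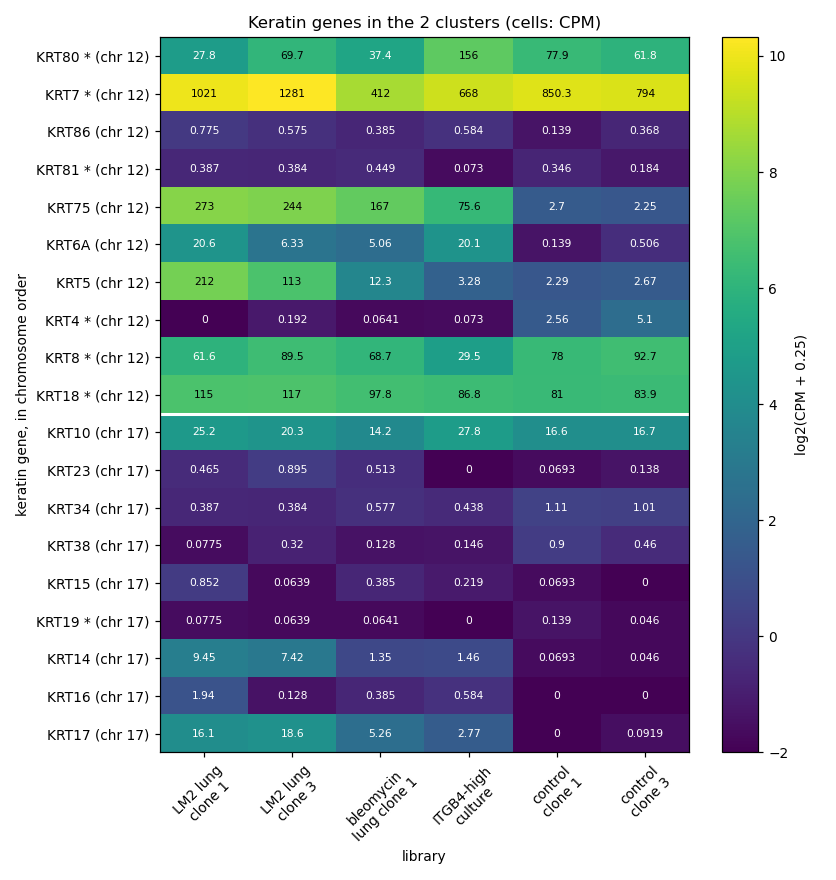
Level of each tested keratin and of the 7 followed here (asterisk) by library, in chromosome order, with the white line between chromosomes 12 and 17, colour for log2(CPM + 0.25) and the CPM written in each cell. KRT7, KRT18 and KRT8 are high in every column, KRT75 is at 75.6 to 273 CPM in the lung and ITGB4 high columns and at 2.25 to 2.7 CPM in controls, and KRT4 is the reverse at far lower levels.

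As a share of all keratin levels per kilobase of exon union, the 7 keratins took 60.4% and 71.2% in LM2 lung clones 1 and 3, 63.4% in bleomycin lung cells, 80.6% in ITGB4 high cells, and 96% and 95.9% in controls. By longest transcript the shares were 73.6%, 82.5% and 77.7% in those lung libraries, 88.9% in ITGB4 high cells, and 98.1% and 98% in controls. KRT7 alone took 42.6% to 58.9% in lung cells, 57.1% in ITGB4 high cells and 74.6% to 75.8% in controls by exon union. The lung and ITGB4 high libraries all lay below the controls in both shares. A share also moves with the other keratins, so it does not give a level. Per kilobase of exon union, KRT7 exceeded both controls (208 and 194 CPM) in LM2 clones 1 and 3 (249 and 313). It was lower under bleomycin (101) and in the ITGB4 high library (163). KRT75 on this scale reached 118, 105, 71.9 and 32.5 CPM in LM2 clone 1, LM2 clone 3, bleomycin and ITGB4 high libraries. Controls held 1.16 and 0.969 CPM of it. The part of KRT75 in the shares was not tested. KRT18 made up 61.5% to 75.8% of all type I keratin per kilobase in lung cells, 64.1% in ITGB4 high cells, and 73.9% and 75% in controls, with overlap between lung cells and controls. Summed type II over type I levels (26 and 29 genes) stood at 7.55 and 8.55 in LM2 lung cells, 4.9 in bleomycin lung cells, 5.8 in ITGB4 high cells, and 7.04 and 6.48 in controls. Type II transcripts were thus in excess of type I in every library, least in bleomycin lung cells, where KRT7 was lowest.

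Among 22 genes whose products bind, anchor or modify keratin filaments, 17 were tested. By edgeR 1 was called higher in all lung libraries against control and none lower (0.498% of all genes were called), with a median log2 fold change of 0.27, beside 0.00 over all genes. That gene was DSP, desmoplakin, which ties keratin filaments to desmosomes. DSP measured 176, 158 and 144 CPM in LM2 lung clone 1, LM2 lung clone 3 and bleomycin lung cells, 80.1 CPM in ITGB4 high cells, and 55.5 and 48.8 CPM in controls (log2 1.61, SE 0.15, edgeR adjusted p = 0.0231). DESeq2 called DSP as well (adjusted p = 1.95e-16), and its further settings are by edgeR. The call of DSP ended with the clone as a block (adjusted p = 0.0509), and without the bleomycin library (0.078), control clone 1 (0.28) or control clone 3 (0.413).

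FAM83H, which organizes keratin filaments, did not pass by edgeR for all lung libraries against control. It measured 54.9, 34.7 and 39.3 CPM in those lung libraries, 49 CPM in ITGB4 high cells, and 13.5 and 13.6 CPM in controls (edgeR adjusted p = 0.0559 for all lung libraries and 0.0704 for ITGB4 high, against control). DESeq2 called both differences (adjusted p = 2.75e-07 and 2.45e-04). With the clone as a block, under the same placing of the ITGB4 high library, FAM83H passed for ITGB4 high cells (adjusted p = 0.0469). In all lung libraries against ITGB4 high, 1 of the 17 was lower by edgeR and none higher (0.108% of all genes were called). It was PPL, periplakin, a linker of the cornified envelope and desmosomes, at 0.232, 0.0639 and 0.256 CPM in the lung libraries and 10.5 CPM in ITGB4 high cells, with 0.0693 and 0.184 CPM in controls (log2 -5.79, SE 0.56, edgeR adjusted p = 0.0426). With the clone as a block its adjusted p was 0.102, and it also missed the threshold without the bleomycin library (0.116), control clone 1 (0.18) or control clone 3 (0.186). DESeq2, under the same filter, called PPL with an adjusted p of 2.11e-07. PPL reached the filter's minimum count of 10 only in ITGB4 high cells, so it entered the test through the group in which it was high. None of the 17 was called by edgeR in the other 4 comparisons. In these, 1 to 6 had an unadjusted edgeR p under 0.05 (4.61% to 24.5% of all genes), and DESeq2 called 0 to 3 (0.404% to 10.7%).

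None of 8 tested genes of other intermediate filaments (16 listed) passed in any of the 6 comparisons by edgeR. At an unadjusted edgeR p under 0.05 there were 0 to 2 (4.61% to 24.5% of all genes), and DESeq2 called 0 to 1 (0.404% to 10.7%). VIM measured 2174, 3051 and 3079.8 CPM in LM2 lung clone 1, LM2 lung clone 3 and bleomycin lung cells, 3561 CPM in ITGB4 high cells, and 3329.7 and 3601 CPM in controls (log2 -0.32 for all lung libraries against control, SE 0.20, edgeR adjusted p = 0.392). SYNM, a type IV filament protein that joins vimentin filaments, had its lowest level in ITGB4 high cells, at 1.46 CPM, with 3.41 to 12.7 CPM in lung cells and 11.8 and 16.1 CPM in controls (log2 -3.25 for ITGB4 high against control, SE 0.96, edgeR adjusted p = 0.14, DESeq2 adjusted p = 0.00293).

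None of 19 tested regulators of simple and luminal epithelial genes (25 listed) passed by edgeR in any comparison. At an unadjusted edgeR p under 0.05 there were 6 to 8 in each comparison against control, where 14.5% to 24.5% of all genes counted. The number of regulators was 6 in bleomycin lung against LM2 lung (4.61% of all genes) and 3 in all lung libraries against ITGB4 high (18.3%). DESeq2 called 0 to 4 of them (0.404% to 10.7% of all genes by comparison). No test set these counts against the shares. ZEB1, a repressor of epithelial genes, measured 124, 138 and 164 CPM in the lung libraries, 113 CPM in ITGB4 high cells, and 311 and 278 CPM in controls (log2 -1.05 for all lung libraries against control, SE 0.15, edgeR adjusted p = 0.0588, DESeq2 adjusted p = 5.97e-06). KLF5, an activator in proliferating epithelia, measured 384, 203 and 136 CPM in the lung libraries, 205 CPM in ITGB4 high cells, and 107 and 108 CPM in controls (edgeR adjusted p = 0.217 for all lung libraries against control). GATA3, a factor of luminal breast cells, measured 17.4 and 14.3 CPM in LM2 lung cells, 5.96 CPM in bleomycin lung cells, 5.77 CPM in ITGB4 high cells, and 12.7 and 14.5 CPM in controls. Its edgeR adjusted p was 0.926 for bleomycin lung against LM2 lung (log2 -1.41, SE 0.28) and 0.1 for ITGB4 high against control (log2 -1.24, SE 0.28).

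Of 20 simple and luminal epithelial markers 8 were tested, and none passed by edgeR in any comparison. At an unadjusted edgeR p under 0.05 there were 0 to 4 (4.61% to 24.5% of all genes), and DESeq2 called 0 to 2 (0.404% to 10.7%). The median log2 fold change of the 8 was 0.89 for LM2 lung, -0.15 for bleomycin lung, 0.70 for all lung libraries and 0.26 for ITGB4 high against control. CDH1, the cadherin of epithelial junctions, and EPCAM, an epithelial adhesion protein, had at most 3 counts in any library. CD24, MUC1 and CDH3 were named after their values were seen, and they did not go one way. CD24 and MUC1, 2 luminal surface proteins, stood highest in controls. CD24 measured 0.155, 3.26 and 1.03 CPM in the lung libraries, 0 CPM in ITGB4 high cells, and 12.5 and 6.66 CPM in controls. MUC1 measured 2.48, 5.18 and 4.81 CPM in the lung libraries, 0.657 CPM in ITGB4 high cells, and 6.3 and 9.84 CPM in controls. CDH3, a cadherin of the basal breast layer, measured 3.49, 2.56 and 1.09 CPM in the lung libraries, 0.073 CPM in ITGB4 high cells, and 0 and 0.0919 CPM in controls. KRT7, KRT8 and KRT18 were thus detected in libraries in which CDH1 and EPCAM were near the floor.

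Genes around the keratins of chromosome 12 gave the local background. Between 50 and 55 Mb, 53 expressed genes other than keratins had a median log2 ratio to their own control of -0.26 in LM2 lung clone 1, -0.11 in LM2 lung clone 3, -0.18 in bleomycin lung clone 1, and -0.06 in ITGB4 high cells against the control mean. The whole chromosome gave -0.03, -0.03, -0.02 and 0.06 over 608 genes.

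The genes nearest to each keratin in level profile over the 6 libraries are given as a description, among 10234 protein-coding genes. Among the smallest distances of centred log2 CPM were those of CTGF, GAS6 and SEMA5A to KRT4 (Pearson r 0.948, 0.982 and 0.943), of SNAPC1 and SLC7A5 to KRT7 (0.926 and 0.943), of SLC25A11, EZH2 and FZD7 to KRT8 (0.987, 0.982 and 0.981), of DDX39A, ATAD2B and ZCCHC8 to KRT18 (0.987, 0.957 and 0.955), and of PLCB1, PER3 and CFAP44 to KRT80 (0.983, 0.976 and 0.946). With 6 libraries, high values were not limited to the genes named, and their number differed by keratin. Of the 10234 genes, an r over 0.95 was reached by 171 with KRT4, 7 with KRT7, 193 with KRT8, 18 with KRT18 and 82 with KRT80. No keratin of the 7 was among the nearest genes of another.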

How the data were processed

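Poly(A) RNA libraries were made with a strand-marking kit, per the labels' protocols, and the submitters' processing notes name STAR 2.7.1a and hg38. The file the authors deposited holds whole-number counts of reads for each gene and library. Which counter, annotation and strand setting produced them is not given in the sources used here. Of 58336 identifiers, 58216 matched GENCODE 29 (GRCh38). The keratins and gene lists were chosen with earlier results of these data known.

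Counts were tested with edgeR 4.0.16 (R 4.3.3): TMM, robust quasi-likelihood fits, filterByExpr at a minimum count of 10, and Benjamini-Hochberg adjustment over 15673 genes at 0.05. All 6 libraries were fitted as 4 groups (residual df 2) and as 3 classes, with all lung cells together (residual df 3). Scripts were tested on simulated data. SEs equal the log2 fold change over the root of F. Alternatives were DESeq2 1.42.0, RLE factors, no filter, the clone as a block and leaving out each library. Clone numbers come from the titles and pair the ITGB4 low libraries, and the ITGB4 high library, which has none, was placed midway between the clones. Deviations of same-numbered LM2 and control libraries correlated at r = 0.00 over 15673 genes. In other lists, genes were named if called, or else by largest change at a mean log2 CPM of 2 or more, up to 4 per list. Of these, the ones printed were picked after their values were seen. Genes most like a keratin were the 3 with the smallest distance, and 1 of them is not reported here. Promoter windows matched 2 of the 7 genes and are not shown.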

Additional observations from a re-analysis of the deposited data

Results flagged for a closer look

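KRT7 lay on opposite sides of its control under the 2 triggers when each lung library was set against the control of its own clone. Its log2 ratio was -1.05 for bleomycin lung clone 1, 0.26 for LM2 lung clone 1 and 0.69 for LM2 lung clone 3. The difference itself, bleomycin against LM2 lung cells, had a log2 fold change of -1.48 and did not pass by edgeR (adjusted p = 0.863), while DESeq2 called it (2.37e-05). KRT80 lay on opposite sides of its control in the 2 clones under LM2, with log2 ratios to the same clone's control of -1.49 for clone 1 and 0.17 for clone 3. That difference rests on 1 library per clone and was not tested.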

How the results depend on the processing

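Counts of called genes depended on the setting more than fold changes did, and the cause was not tested. In the order LM2 lung, bleomycin lung, all lung, ITGB4 high (each against control), all lung against ITGB4 high and bleomycin lung against LM2 lung, edgeR called 5, 4, 78, 14, 17 and 0 genes. Without the low-count filter it called 1748, 1430, 2152, 2707, 1406 and 236 genes, among them 1, 2, 2, 3, 2 and 1 of the 7 keratins. The numbers of genes tested without the filter, and below with 1 library left out, are not given here. The keratin counts of those fits therefore have no share over all genes beside them and are not read as a result about the keratins. DESeq2 called 647, 580, 1278, 1517, 1086 and 56 genes, with 1, 1, 1, 2, 2 and 1 keratins. RLE factors called 14 for LM2 lung and 74 for ITGB4 high. The clone as a replicate block called 36, 8, 39, 363, 0 and 0 genes and 1 keratin (KRT8, ITGB4 high). The block reversed the log2 fold change of bleomycin against LM2 lung for KRT4 (0.20) and KRT8 (0.08). Among the other genes named with a fold change it ended the calls of KRT17, DSP and PPL and added FAM83H for ITGB4 high, and it changed no other call. Leaving out 1 library at a time gave 0 to 6303, 0 to 4424, 0 to 1012, 0 to 6611, 0 to 1432 and 0 to 2969 genes, and 0 to 5, 0 to 3, 0 to 1, 0 to 3, 0 to 1 and 0 to 2 keratins. The low end was reached without either control and the high end without an LM2 library. All lung against ITGB4 high also reached its low end without the bleomycin library, and bleomycin against LM2 lung without the ITGB4 high library. For the keratins, the low end was also the count of the full fits. Across these fits the log2 fold change ran from -0.46 to 0.07 for KRT8 and from -1.31 to 0.00 for KRT80 in LM2 lung, from -0.19 to 0.49 for KRT7 in all lung, from -0.90 to 0.75 for KRT4 in all lung against ITGB4 high, and, in bleomycin against LM2 lung, from -1.47 to 3.18 for KRT4, -0.38 to 0.15 for KRT8 and -0.89 to 0.42 for KRT80. Apart from these, no log2 fold change given for a keratin or a listed gene changed sign under any of these settings. Genes most like a keratin by Pearson r shared 0 of 3 with those by distance, except 1 for KRT18. Groups of 1 library limit every comparison, with 2 or 3 residual degrees of freedom in the full fits and 1 or 2 with the block or most left-out libraries, and depth limits KRT4, KRT19 and KRT81.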
